A study of Mus musculus with 16 samples.

Results

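The 44 genes described here encode proteins of the cell division cycle, and they were picked out by symbol among the 49315 genes of the expression table, from a list drawn up with earlier results of these data known. They comprise 16 genes of the S phase, in which DNA is copied, and 28 genes of mitosis, in which the copied chromosomes are divided. All 44 were among the 24188 genes tested, which had at least 1 TPM (transcripts per 1000000, a level scaled by gene length and library total) in at least 3 libraries. Of the 44, 26 had a mean of at least 5 TPM over all libraries.

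RNA had been sequenced from intervertebral discs, the joints between vertebrae, of 16 mice, with 4 coccygeal (tail) discs pooled per mouse, so that each library stood for 1 animal. The groups were intact discs of 3 wild-type mice, injured discs of 4 wild-type mice, intact discs of 4 Adam8EQ mutants and injured discs of 5 Adam8EQ mutants. Adam8 encodes a membrane-bound metalloprotease, and the EQ allele is not described further in the labels. The series title names the inbred strain DBA, and neither the age of the mice nor the kind of injury nor the time after it is given in the labels. The library names of the mutants began with A8 in intact mice 1 and 2 and injured mice 1 and 2 and with M in the other mutants, while those of all wild-type mice began with D.

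Most cells of an adult disc do not divide. A cell that re-enters the cycle switches on its S-phase genes through E2F transcription factors and its mitotic genes later, through the MuvB complex with B-Myb and FOXM1, and the products of many mitotic genes are degraded at the end of each division. Transcripts of mitotic genes such as Mki67 and Top2a are therefore common markers of dividing cells.

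Injured discs had higher levels of mitotic transcripts than intact discs in both genotypes, and the S-phase transcripts moved less. In mutants, 32 of the 44 genes rose with injury at an adjusted p under 0.05 and 0 fell (limma, Benjamini-Hochberg over all tested genes), where 13.1% of all tested genes were called higher and 17.7% lower. By phase, 25 of the 28 mitotic genes and 7 of the 16 S-phase genes rose. The median change of mean log2(TPM + 1) was 1.44 for mitotic genes and 0.46 for S-phase genes, and -0.08 for all tested genes. In wild-type discs, 0 of the 44 passed the same threshold, where 0.107% of all tested genes were called higher and 0.116% in either direction, and the lowest adjusted p was 0.0568, for Mki67. At an unadjusted p under 0.05, 29 of the 44 were higher in injured wild-type discs (24 mitotic and 5 S-phase), where 10.3% of all tested genes were higher by that measure. The median change in wild type was 1.33 for mitotic genes, 0.31 for S-phase genes and 0.01 for all tested genes. Limma's voom method on the reads implied by the TPM values also called 0 of 44 in wild type, and it called 29 of 44 in mutants. Among all genes it tested, voom called 4 in wild type and 7815 in mutants.

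The wild-type count depended on single libraries. Without injured wild-type mouse 1, 11 of the 44 were called in wild type, and without injured mutant mouse 1, which shares the estimate of the spread, 3 were called (Mki67, Top2a and Cdc20). Calls among all 24188 tested genes rose as well, from 28 with every library to 452 without the first of these mice and 46 without the second. The mutant count was 26 of 44 without injured mutant mouse 1, and likewise 26 without intact mutant mouse 1. Of all tested genes, 6124 and 5787 were called in these fits, against 7438 with every library. Among mutants with library names starting with A8, 27 of 44 were called and the median change of all 44 was 1.61. Among those starting with M, 0 of 44 were called, 21 had an unadjusted p under 0.05, and the median change was 0.77. Calls among all tested genes also fell, to 3583 with the A8 mutants and 725 with the M mutants. The names followed no label of a batch, and what they stand for was not tested.

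**Figure D1:**
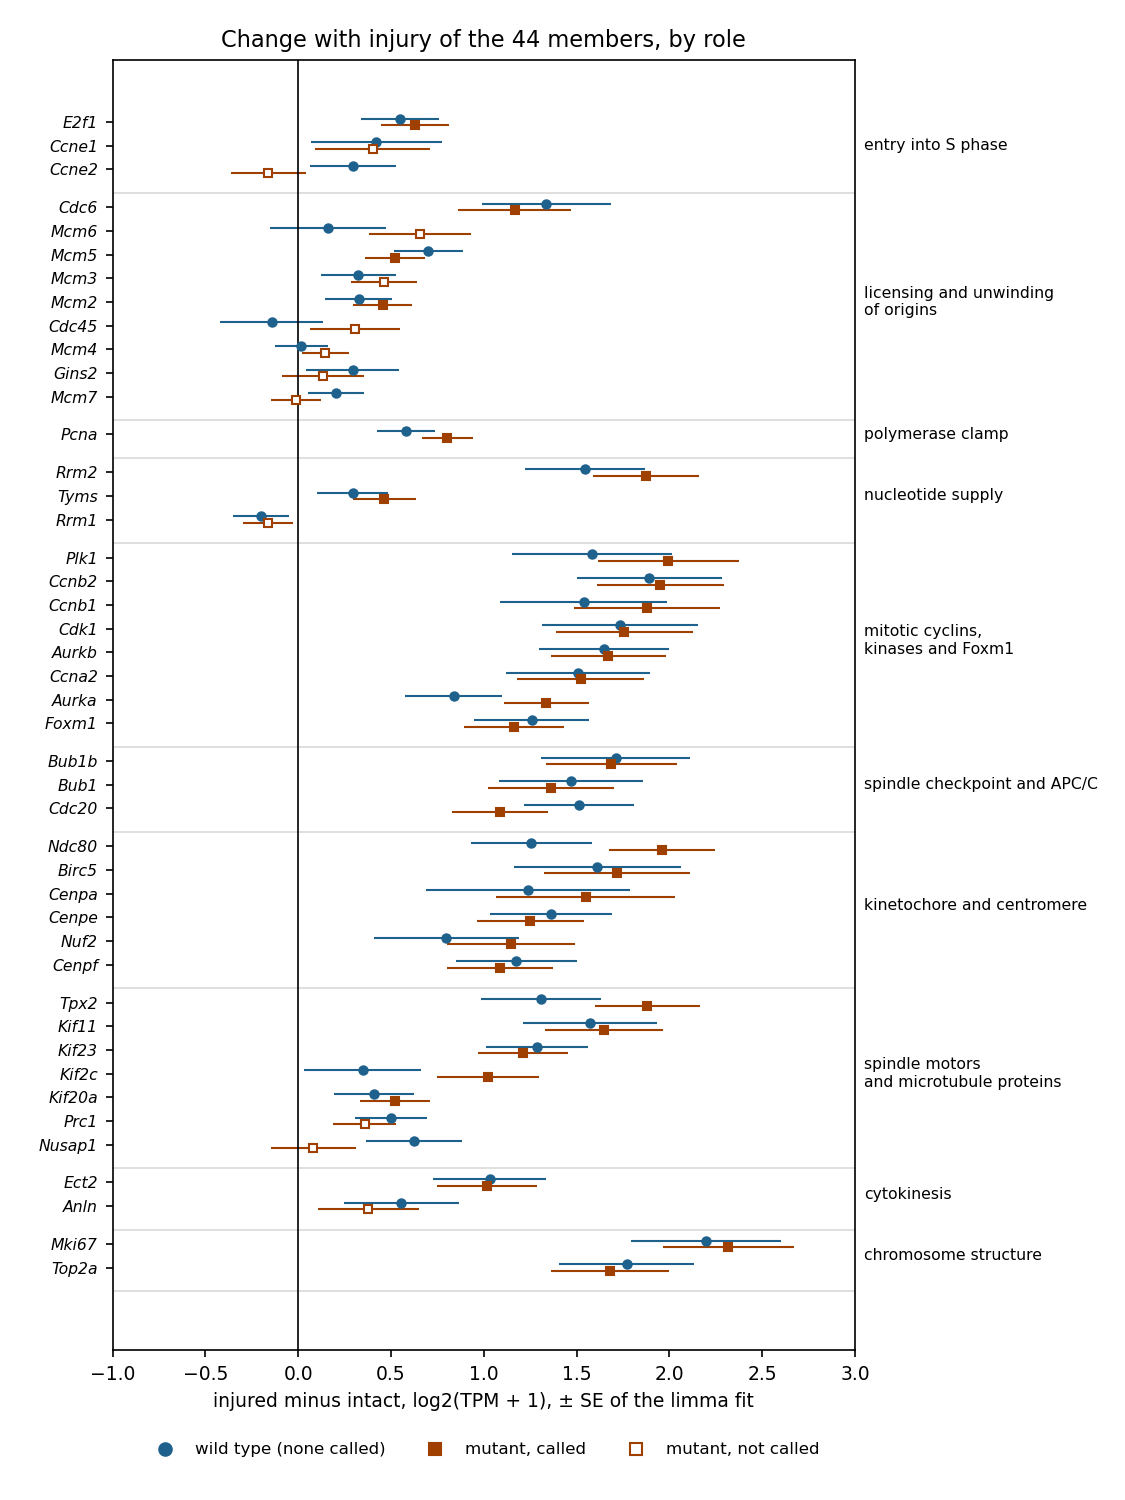
Change with injury of each of the 44 genes, grouped by role, as injured minus intact mean log2(TPM + 1) with the standard error of the limma fit. Circles are wild type, in which 0 genes were called, and squares are mutants, filled where the adjusted p was under 0.05. Most genes of the mitotic classes sit to the right of most S-phase genes, with Nusap1, Prc1, Anln and Kif20a in mutants among the S-phase values.

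The level of each phase in each library gave the same picture. The mean log2(TPM + 1) over the 28 mitotic genes was 1.45, 1.55 and 1.5 in intact wild-type mice 1 to 3 and 2.68, 2.39, 3.42 and 2.62 in injured wild-type mice 1 to 4. It was 1.47, 1.48, 1.52 and 1.65 in intact mutants 1 to 4 and 3.67, 3.05, 2.29, 3.10 and 2.36 in injured mutants 1 to 5. No injured library reached down to the intact range, and injured mutant mouse 1 and injured wild-type mouse 3 were the highest of their groups.

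The mean over the 16 S-phase genes was 3.04 ± 0.09 (SD, n = 3) in intact and 3.46 ± 0.15 (SD, n = 4) in injured wild-type discs. In mutants it was 3.02 ± 0.18 (SD, n = 4) and 3.50 ± 0.18 (SD, n = 5). The S-phase mean minus the mitotic mean therefore moved from 1.54 ± 0.14 to 0.68 ± 0.32 in wild type and from 1.49 ± 0.13 to 0.61 ± 0.42 in mutants. Every injured library had a smaller difference between the phases than every intact library of its genotype. Expressed as TPM, mitotic transcripts made up 27.7% to 32.1% of the summed TPM of the 44 genes in intact wild-type discs and 41.2% to 56.2% in injured ones. The corresponding ranges in mutants were 30.2% to 33.8% and 39.7% to 61.1%.

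**Figure D2:**
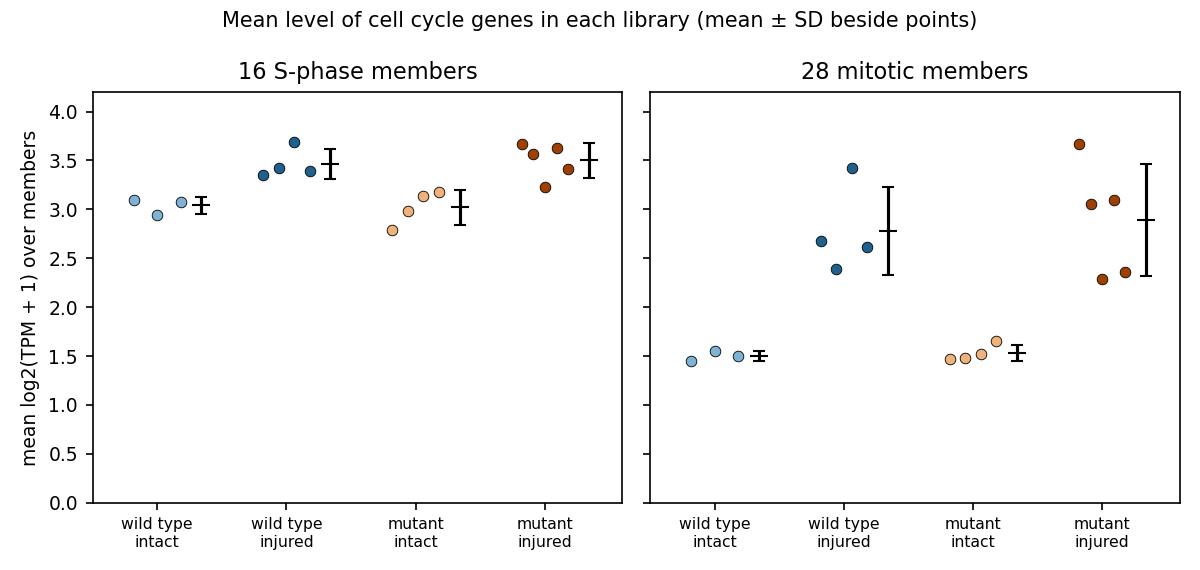
Mean log2(TPM + 1) over the 16 S-phase genes (left) and the 28 mitotic genes (right) in each library, with the mean and SD of each group beside the points. The mitotic means of injured libraries run from 2.29 to 3.67 and those of intact libraries from 1.45 to 1.65.

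The same animals were high for nearly all mitotic genes. Injured wild-type mouse 3 had the highest TPM of the 4 injured wild-type mice in 25 of 28 mitotic genes and 9 of 16 S-phase genes. Injured mutant mouse 1, the most deeply sequenced of all, was the highest of 5 in 27 of 28 mitotic genes and 5 of 16 S-phase genes. In each injured mouse taken alone, between 25 and 28 of the 28 mitotic genes stood above every intact library of its genotype, and between 6 and 13 of the 16 S-phase genes did, where 26.3% to 35.5% of all tested genes did. For whole groups, 24 mitotic and 4 S-phase genes had no overlap between injured and intact TPM values in wild type, where 9.22% of all tested genes were higher without overlap. In mutants the counts were 24 mitotic and 6 S-phase genes, where 12% of all tested genes were.

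Promoter sequence is shown for members with large changes in mutants, and short sequence elements known from cell cycle promoters were counted. Whether these elements have a part in the changes was not tested. Promoters from RefSeq (build GRCm38.p6, 250 bases before to 50 bases after the start of the gene) were found for 36 of the 44 genes, in 39 windows. The CHR element of mitotic genes (TTTGAA or TTCGAA, either strand) was present in 20 of 25 mitotic windows (80%), in 3 of 14 S-phase windows (21.4%) and in 19.2% of all 32851 windows in the table. The CCAAT box (CCAAT, either strand) was present in 76% of mitotic and 71.4% of S-phase windows, against 37.4% of all windows. E2F elements (TTGGCGC or TTCCCGC or TTGCCGC or TTCGCGC, either strand) were present in 57.1% of S-phase and 20% of mitotic windows, against 9.57% of all and 14.7% of those of tested genes. An E-box (CACGTG) was present in 1 S-phase and 1 mitotic window, against 7.15% of all. These are matches of letters in a window, and binding was not measured.

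Capitals mark these elements in the stretches below, which run 5′ to 3′ on the strand of the gene and leave out bases annotated as untranslated. Mki67 (chr7:135716380-135716579, minus strand) carried 2 CHR elements, 3 CCAAT boxes and 1 E2F element. Plk1 (chr7:122159235-122159434, plus strand) carried 1 CCAAT box, and its CHR element began 31 bases after the start, beyond the stretch shown. Cdc6 (chr11:98907982-98908150, plus strand) and Rrm2 (chr12:24708041-24708240, plus strand) are the S-phase genes shown. Cdc6 carried 1 E2F element, in a stretch that GENCODE release M21 places in the first intron of longer transcripts. Rrm2 carried 1 CCAAT box, and its E2F element began at position -235, outside the stretch shown.
Mki67: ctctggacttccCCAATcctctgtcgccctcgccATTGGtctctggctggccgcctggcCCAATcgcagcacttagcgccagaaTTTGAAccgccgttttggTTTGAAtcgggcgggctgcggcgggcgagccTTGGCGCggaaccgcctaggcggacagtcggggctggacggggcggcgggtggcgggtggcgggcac
Plk1: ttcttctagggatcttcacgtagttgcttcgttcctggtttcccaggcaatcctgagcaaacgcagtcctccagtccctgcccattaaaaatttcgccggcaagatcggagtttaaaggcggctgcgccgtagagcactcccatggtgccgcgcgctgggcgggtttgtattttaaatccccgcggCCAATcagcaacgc
Cdc6: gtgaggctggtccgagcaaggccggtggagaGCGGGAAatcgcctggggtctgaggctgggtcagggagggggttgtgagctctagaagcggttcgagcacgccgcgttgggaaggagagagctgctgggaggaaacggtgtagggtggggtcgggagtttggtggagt
Rrm2: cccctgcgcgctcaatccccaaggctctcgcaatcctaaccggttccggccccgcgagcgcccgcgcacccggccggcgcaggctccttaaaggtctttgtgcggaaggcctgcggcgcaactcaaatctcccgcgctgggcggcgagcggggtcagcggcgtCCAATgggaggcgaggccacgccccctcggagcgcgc
Of the other promoters chosen by the same rule, that of Ndc80 had 1 CHR element 30 bases after the start and no other match, and that of Pcna had 1 CCAAT box at position -87.

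Values per library follow in the order of the mouse numbers. Among the genes for chromosome structure, Mki67 (chr7:135689784-135716361, minus strand, GRCm38) encodes Ki-67, which coats mitotic chromosomes. On the log2(TPM + 1) scale it had the largest change of the 44 in both genotypes. It stood at 2.53, 3.37 and 2.81 TPM in intact and at 12.1, 10.4, 36.2 and 17.3 TPM in injured wild-type discs. In mutants it stood at 2.69, 3.16, 3.91 and 4.28 TPM in intact and at 37.3, 25.9, 11.4, 28.3 and 13.6 TPM in injured discs. The groups did not overlap in either genotype, and mean levels in injured discs were 6.54 times (wild type) and 6.64 times (mutants) those in intact discs. By this ratio other genes of the 44 were higher, up to 9.93 (Bub1b) in wild type and 22.1 (Ndc80) in mutants. On the log2(TPM + 1) scale Mki67 rose by 2.32 ± 0.36 (SE) in mutants (adjusted p = 0.000764), and in wild type its difference was 2.2 ± 0.40 (SE).

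Top2a encodes topoisomerase II alpha, which untangles DNA before chromosomes separate. Its level was 1.62, 1.64 and 1.59 TPM in intact and 7.28, 5.92, 13.7 and 6.51 TPM in injured wild-type discs. In mutants it was 1.62, 1.71, 1.48 and 2.2 TPM in intact and 16.2, 9.5, 4.01, 8.95 and 4.76 TPM in injured discs. Intact libraries of both genotypes thus sat close together and every injured library lay above them, with the change in mutants at 1.68 ± 0.32 (SE, adjusted p = 0.00213). In bulk tissue, fewer cells of a type and less RNA per cell cannot be told apart, nor can more cells and more RNA per cell.

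**Figure D3:**
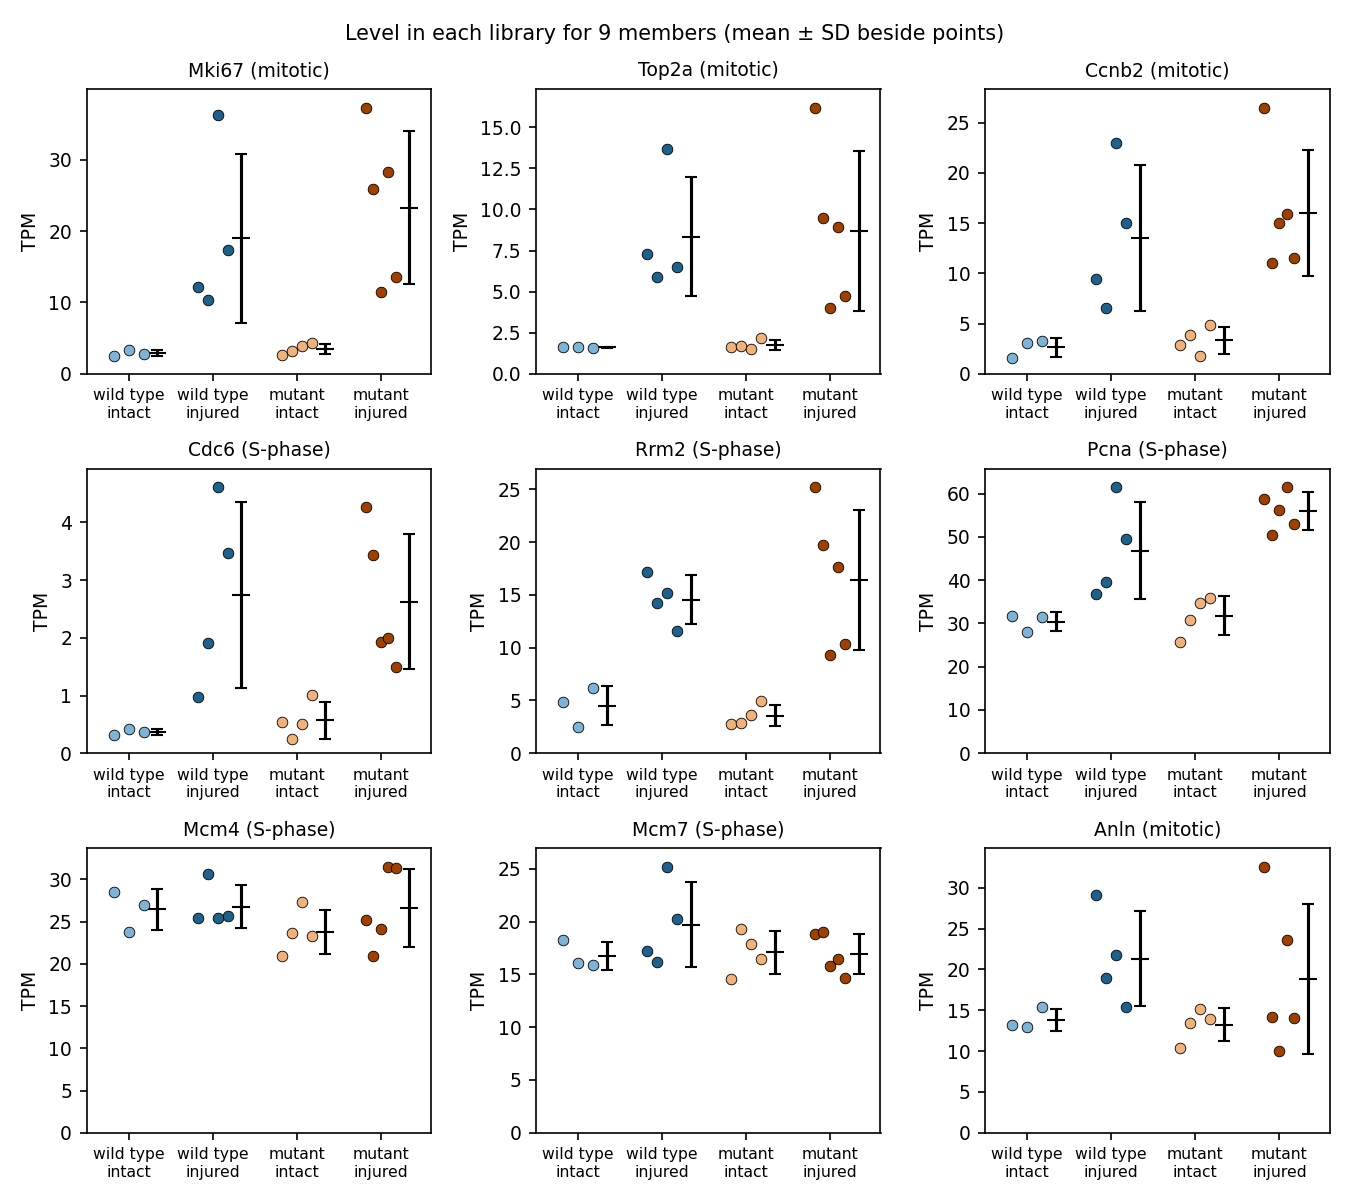
TPM in each library for 9 of the 44 genes, with the mean and SD of each group beside the points and the axes starting at 0. Mki67, Top2a, Ccnb2, Cdc6, Rrm2 and Pcna are higher in every injured library than in every intact library of the same genotype, while the groups overlap in mutants for Mcm4, Mcm7 and Anln.

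The cyclins and kinases that drive mitosis all rose in mutants, 8 of 8, by 1.16 (Foxm1, the transcription factor of mitotic genes) to 1.99 (Plk1, a kinase of spindle assembly and mitotic exit). In wild type, all 8 were higher in every injured than in every intact library, with changes of 0.84 (Aurka) to 1.89 (Ccnb2) and adjusted p-values from 0.0902 to 0.164. Ccna2 is the cyclin shared by S phase and mitosis. It stood at 4.24, 3.08 and 3.8 TPM in intact and 11.1, 10.6, 21.1 and 9.1 TPM in injured wild-type discs, and at 3.07, 4, 4.78 and 4.7 TPM in intact and 30.9, 16.5, 8.77, 15 and 6.68 TPM in injured mutant discs. Aurkb, the kinase that corrects faulty spindle attachments, had the lowest mean of the class in each group. It stood at 0.346, 0.853 and 0.790 TPM in intact and at 3.69, 2.77, 7.36 and 3.79 TPM in injured wild-type discs. In mutants Aurkb went from 0.275, 0.213, 1.1 and 0.947 TPM to 7.38, 3.99, 1.97, 4.75 and 3.62 TPM. Both genes separated injured from intact discs without overlap.

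Ccnb2, a cyclin partner of Cdk1 at mitotic entry, and Plk1 were among the 5 largest rises in mutants on the log2(TPM + 1) scale. Ccnb2 was at 1.55, 3.08 and 3.29 TPM in intact and 9.41, 6.53, 23 and 15 TPM in injured wild-type discs, and at 2.91, 3.9, 1.74 and 4.86 TPM in intact and 26.5, 11, 15, 15.9 and 11.5 TPM in injured mutant discs. Plk1 was at 1.85, 2.29 and 1.41 TPM in intact and 3.93, 6.57, 13.7 and 8.39 TPM in injured wild-type discs, and at 2.39, 1, 1.48 and 2.25 TPM in intact and 21.6, 11.8, 5.99, 12 and 4.7 TPM in injured mutant discs. The lowest injured mouse of each series still exceeded the highest intact one. The changes in mutants were 1.95 ± 0.34 (SE, adjusted p = 0.00146) for Ccnb2 and 1.99 ± 0.38 (SE, adjusted p = 0.00214) for Plk1.

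The 3 genes of the spindle checkpoint and its target, the anaphase-promoting complex, rose in mutants. Cdc20, the activator of that complex, stood at 3.27, 3.53 and 2.70 TPM in intact and 11.7, 7.93, 16 and 9.27 TPM in injured wild-type discs, and at 4.11, 4.04, 4.59 and 6.30 TPM in intact and 17.5, 12.6, 6.55, 14.2 and 8.05 TPM in injured mutant discs. The separation in mutants was narrow, since intact mouse 4 and injured mouse 3 lay next to each other. Bub1, a checkpoint kinase, was near the limit of detection in intact discs, at 0.156, 0.216 and 0.534 TPM in wild type and 1.02, 0.506, 0.136 and 0.925 TPM in mutants, or 2 to 13 implied reads a library. In injured discs it was at 1.69, 1.96, 4.22 and 2.95 TPM in wild type and 5.79, 5.74, 1.41, 3.21 and 1.58 TPM in mutants, above every intact library.

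All 6 kinetochore and centromere genes rose in mutants, by 1.09 (Cenpf) to 1.96 (Ndc80). Ndc80 encodes the kinetochore protein that binds microtubules. It was at 0.617, 0.571 and 0.705 TPM in intact and 2.62, 2.19, 5.06 and 2.29 TPM in injured wild-type discs. It was listed at 0 in intact mutants 1 and 2, stood at 0.537 and 0.141 TPM in intact mutants 3 and 4 and at 5.33, 4.14, 1.81, 5.27 and 2.14 TPM in injured mutants. The intact mutants lay below the intact wild-type mice without overlap, as 3.41% of all tested genes did, a difference of -0.50 ± 0.33 (SE, adjusted p = 1), at 12 implied reads or fewer a library in intact discs.

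The histone variant Cenpa marks centromeres. It stood at 1.27, 0.751 and 1.19 TPM in intact and 3.88, 0.948, 9.66 and 4.48 TPM in injured wild-type discs, and at 0.138, 1.18, 0.857 and 1.22 TPM in intact and 8.04, 8.18, 1.62, 5.64 and 1.71 TPM in injured mutant discs. Injured wild-type mouse 2 lay within the intact range, and the other injured mice lay above it. Nuf2, the partner of Ndc80, showed a similar overlap, at 0.482, 0.942 and 0.673 TPM in intact and 1.21, 0.759, 5.13 and 2.12 TPM in injured wild-type discs. In mutants Nuf2 went from 0.510, 0.595, 0.186 and 0.342 TPM to 4, 3.25, 1.59, 1.55 and 1.04 TPM without overlap.

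Of the 7 spindle motors and microtubule proteins, 5 rose in mutants (Tpx2, Kif11, Kif23, Kif2c and Kif20a), and the call of Kif20a was lost in 20 of 29 alternatives. Tpx2, which activates Aurora A on the spindle, was at 2.61, 2.82 and 3.07 TPM in intact and 7.53, 5.62, 16.1 and 7.41 TPM in injured wild-type discs, and at 2.16, 2.02, 2.91 and 2.78 TPM in intact and 18, 13.6, 6.94, 14.7 and 8.51 TPM in injured mutant discs. The groups were well apart in both genotypes. Kif2c, which dismantles microtubules at kinetochores, was at 1.01, 0.792 and 0.622 TPM in intact and 0.954, 1.1, 2.21 and 1.09 TPM in injured wild-type discs, and at 0.649, 0.360, 0.677 and 0.355 TPM in intact and 4.47, 2.22, 1.12, 2.52 and 1.01 TPM in injured mutant discs. It overlapped in wild type and not in mutants, and its difference between the 2 injury effects was 0.67 ± 0.42 (SE, adjusted p = 0.695).

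The mitotic genes that were not called in mutants were Prc1, Nusap1 and Anln, all with comparatively high levels in intact discs. Prc1, which bundles the central spindle, stood at 8.83, 8.98 and 7.5 TPM in intact and 14.6, 10.9, 14 and 10.4 TPM in injured wild-type discs, and at 7.62, 7.88, 10.2 and 9.49 TPM in intact and 17.2, 9.66, 9.75, 11.4 and 10.7 TPM in injured mutant discs. Its groups did not overlap in wild type, while in mutants 2 injured mice lay below the highest intact mouse (0.36 ± 0.17, SE, adjusted p = 0.124). Nusap1, a spindle protein that binds microtubules, had a mean of 7.11 ± 1.45 TPM (SD, n = 4) in intact and 7.82 ± 2.98 TPM (SD, n = 5) in injured mutants. In wild-type discs Nusap1 had 5.87 ± 1.04 TPM (SD, n = 3) and 9.77 ± 2.91 TPM (SD, n = 4), without overlap. Its difference between the injury effects, the most negative of the 44, was -0.54 ± 0.35 (SE, adjusted p = 0.711).

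Of the genes for cytokinesis, the final splitting of the cell, Ect2 rose in mutants and Anln was not called. Anln, which organises actin at the cleavage furrow, was at 13.2, 12.9 and 15.4 TPM in intact and 29.1, 19, 21.8 and 15.4 TPM in injured wild-type discs, and at 10.4, 13.4, 15.2 and 13.9 TPM in intact and 32.6, 14.2, 9.96, 23.6 and 14 TPM in injured mutant discs. Injured and intact mice overlapped in both genotypes, and the change in mutants was 0.38 ± 0.27 (SE, adjusted p = 0.312). Ect2, which activates RhoA at the furrow, was at 1.39, 2.16 and 2.38 TPM in intact and 4.81, 4.12, 6.82 and 4.62 TPM in injured wild-type discs, and at 3, 2.10, 1.59 and 2.76 TPM in intact and 11, 5.52, 3.35, 6.74 and 4.19 TPM in injured mutant discs. It did not overlap, and it rose in mutants by 1.02 ± 0.27 (SE, adjusted p = 0.0116).

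The changes of the 16 S-phase genes in mutants ran from -0.16 (Rrm1) to 1.87 (Rrm2), with 7 called. Rrm2, the cell-cycle-regulated small subunit of ribonucleotide reductase, which makes the building blocks of DNA, was the S-phase gene with the largest change in mutants. It stood at 4.9, 2.5 and 6.16 TPM in intact and 17.2, 14.2, 15.2 and 11.6 TPM in injured wild-type discs, and at 2.77, 2.84, 3.63 and 4.92 TPM in intact and 25.2, 19.7, 9.28, 17.6 and 10.3 TPM in injured mutant discs. Its groups did not overlap, and it rose in mutants by 1.87 ± 0.28 (SE, adjusted p = 0.000744). Rrm1, the large subunit of the same enzyme, was at 19.1, 17.4 and 20.3 TPM in intact and 18.5, 17.7, 14.8 and 14.5 TPM in injured wild-type discs, and at 15.2, 17.4, 14.1 and 16.4 TPM in intact and 14.8, 12.8, 11, 18.3 and 13.6 TPM in injured mutant discs. Rrm1 overlapped in both genotypes, with differences of -0.20 ± 0.15 (wild type) and -0.16 ± 0.13 (mutants, SE).

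Tyms, thymidylate synthase, was at 5.69, 6.5 and 8.54 TPM in intact and 8.52, 8.15, 10.5 and 7.48 TPM in injured wild-type discs, with overlap. In mutants Tyms rose from 5.05, 6.25, 6.75 and 6.67 TPM to 11.1, 11, 7.99, 7.62 and 7.31 TPM (0.46 ± 0.17, SE, adjusted p = 0.0478), a call lost in 18 of 29 alternatives. Pcna, the sliding clamp of DNA polymerases, had the highest level of the 44 genes in every group. It stood at 31.8, 28 and 31.5 TPM in intact and 36.9, 39.5, 61.5 and 49.5 TPM in injured wild-type discs, and at 25.8, 30.8, 34.7 and 35.9 TPM in intact and 58.7, 50.4, 56.2, 61.5 and 52.9 TPM in injured mutant discs. The groups did not overlap, and Pcna rose in mutants by 0.80 ± 0.14 (SE, adjusted p = 0.00126).

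Of the 9 genes that license and unwind replication origins, 3 rose in mutants (Cdc6, Mcm5 and Mcm2). The call of Mcm2 was lost in 14 and that of Mcm5 in 10 of 29 alternatives. Cdc6, which loads the MCM helicase, was the lowest of the class in intact discs, at 0.325, 0.421 and 0.371 TPM in intact and 0.979, 1.91, 4.61 and 3.47 TPM in injured wild-type discs, and at 0.541, 0.240, 0.509 and 1.01 TPM in intact and 4.26, 3.43, 1.93, 1.99 and 1.5 TPM in injured mutant discs. Within each genotype every injured mouse exceeded every intact one, and the rise in mutants was 1.17 ± 0.30 (SE, adjusted p = 0.0108). Mcm4 was the highest of the class, at 28.5, 23.8 and 27 TPM in intact and 25.4, 30.6, 25.4 and 25.7 TPM in injured wild-type discs, and at 20.9, 23.6, 27.3 and 23.3 TPM in intact and 25.2, 20.9, 24.1, 31.5 and 31.3 TPM in injured mutant discs. Its groups overlapped in both genotypes, with differences of 0.02 ± 0.14 and 0.15 ± 0.13 (SE).

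The 6 subunits of the MCM helicase form a single ring, yet their transcripts differed in level and in change. Their changes in mutants ran from -0.01 (Mcm7) to 0.66 (Mcm6), with a median of 0.46, and 2 of the 6 were called. Mcm6, the subunit with the largest value, had means of 9.41 ± 3.38 TPM (SD, n = 4) in intact and 16 ± 6.16 TPM (SD, n = 5) in injured mutants (adjusted p = 0.0839), with injured mouse 2 at 6.81 TPM, below every intact mutant. Mcm7 stood at 17.1 ± 2 TPM (SD, n = 4) and 17 ± 1.89 TPM (SD, n = 5), and the sign of its small difference turned with median-of-ratios scaling (0.07) and quantile normalization (0.06). In wild type the MCM changes ran from 0.02 (Mcm4) to 0.70 (Mcm5), and the sign for Mcm4 turned with quantile normalization (-0.02). Mcm5 was the 1 MCM gene without overlap in wild type, and Mcm2 the 1 without overlap in mutants.

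Of the genes for entry into S phase, E2f1, the transcription factor of S-phase genes, rose in mutants. Its mean was 6.54 ± 1.23 TPM (SD, n = 4) in intact and 10.7 ± 2.02 TPM (SD, n = 5) in injured mutants, a change of 0.63 ± 0.18 (SE, adjusted p = 0.0189). The cyclins E, which activate Cdk2 before S phase, were not called. Ccne1 was at 1.15, 1.65 and 1.89 TPM in intact and 2.04, 1.95, 4.41 and 1.78 TPM in injured wild-type discs, and at 0.912, 1.65, 1.78 and 3.03 TPM in intact and 4.34, 4.53, 1.26, 2.12 and 2 TPM in injured mutant discs. Among injured mutants the 2 mice with names starting with A8 were the high ones, and the change was -0.27 among those starting with M. Ccne2 was at 16.3, 9.08 and 15.5 TPM in intact and 15.9, 21.4, 14.1 and 15.3 TPM in injured wild-type discs, and at 12.6, 15.1, 13 and 16.6 TPM in intact and 17.3, 16, 9.81, 11.8 and 9.95 TPM in injured mutant discs, with overlap in both.

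Level in intact discs and size of change were related among the 44 genes, as a description. The 22 genes with the lower mean TPM in intact discs, 0.367 to 2.77, had median changes of 1.32 in wild type and 1.46 in mutants. The 22 with the higher levels, 3.05 to 31.2, had medians of 0.52 and 0.49. The lower-level genes comprised 19 mitotic and 3 S-phase genes. The 9 mitotic genes at higher levels had medians of 1.26 and 1.09, and the 13 S-phase genes at higher levels had 0.30 and 0.46. As ratios of mean TPM, the median was 4.41 (wild type) and 4.87 (mutants) for mitotic genes and 1.31 and 1.45 for S-phase genes. At least a 2-fold higher mean was found for 23 and 24 of 28 mitotic genes and for 2 and 2 of 16 S-phase genes, where 9.72% and 11.2% of all tested genes had it.

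**Figure D4:**
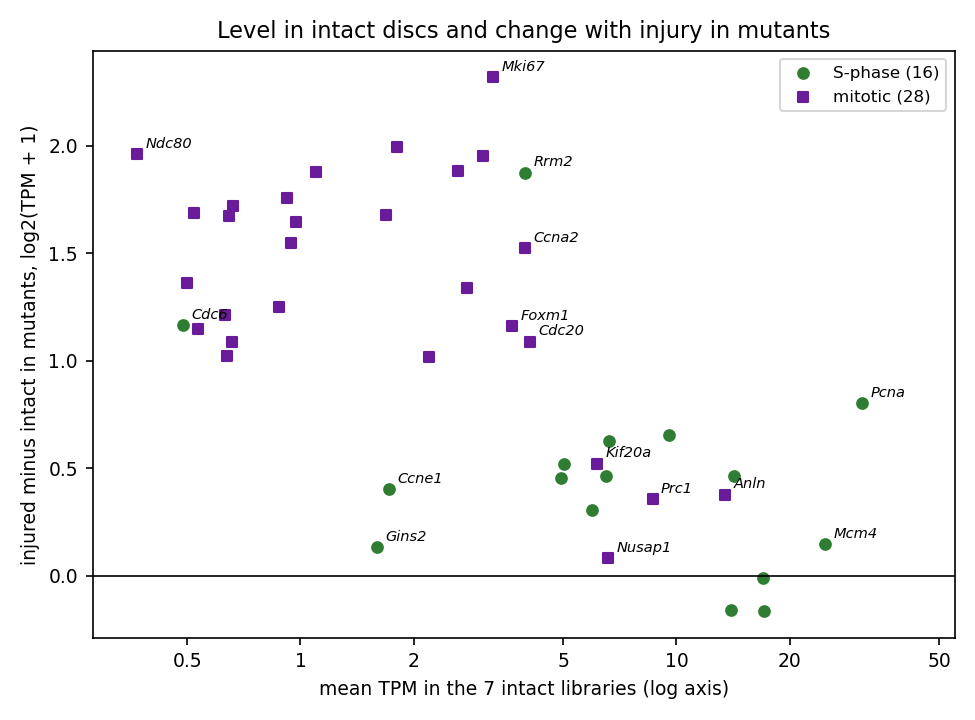
Change with injury in mutants (log2(TPM + 1), vertical axis) against the mean TPM in the 7 intact libraries (log axis), 1 point per gene. Rrm2 and Cdc6 are the S-phase genes among the mitotic ones, and Anln, Prc1, Nusap1 and Kif20a are the mitotic genes among the S-phase ones.

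Some of the 44 genes share exon bases with a neighbour, and the use of strand in counting is not given in the sources used here, so that their reads cannot be told apart from those of the neighbour. For Gins2, of the helicase that unwinds origins, 67.3% of the exon bases overlap the opposite-strand gene Gse1, and for Kif20a 29.3% overlap Cdc23. The overlap was 17.4% for Ccne2 (Ints8), 12.6% for Mcm7, 12.5% for Ccna2 (Exosc9), 11.1% for Prc1 (Rccd1) and less for the others. Of these, Ccna2 and Kif20a were called in mutants, Kif20a at an adjusted p of 0.0488.

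Between genotypes, 0 of the 44 genes were called in intact discs, where 0.0165% of all tested genes were called, and 0 in injured discs, where 0.918% were (limma). At an unadjusted p under 0.05 the counts were also 0 and 0, where 3.78% and 20.3% of all tested genes passed, and voom called 0 and 0. Differences in intact discs ran from -0.50 (Ndc80) to 0.46 (Cdc20) and in injured discs from -0.36 (Ccne2) to 0.43 (Aurka, the spindle pole kinase). The largest, Aurka, had means of 8.62 ± 2.91 TPM (SD, n = 5) in injured mutants and 6.09 ± 2.11 TPM (SD, n = 4) in injured wild-type mice, which overlapped (SE 0.23, adjusted p = 0.303). Without injured wild-type mouse 3, 1 of the 44 genes was called in injured discs, Pcna, at 0.41 ± 0.12 (SE, adjusted p = 0.0496), against 0.28 ± 0.14 with it (SE, adjusted p = 0.276). Among all tested genes, 2253 were called without that mouse and 222 with it.

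The injury effect was not found to differ between genotypes for any of the 44. In the interaction, 0 of 44 were called by limma and by voom, where 0% of all tested genes were called. At an unadjusted p under 0.05 there were 0 in limma, where 8.18% of all tested genes passed. In voom there was 1, where 2272 of all genes passed. The differences between the injury effects ran from -0.54 (Nusap1) to 0.70 (Ndc80) with a median of 0.05 and a median SE of 0.42. The sign of that median turned with the libraries used. It was 0.43 with only the A8 mutants and -0.26 with only the M mutants, 0.26 without injured wild-type mouse 3 and -0.12 without injured mutant mouse 1. The change was larger in mutants than in wild type for 26 of the 44 genes, 16 of 28 mitotic and 10 of 16 S-phase. It was so for 10108 of all 24188 tested genes.

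Other genes of the cycle were read from lists. Of 38 further mitotic genes, 24 rose in mutants and 0 fell, with a median change of 0.86. Of all tested genes, 13.1% were called higher in mutants and 17.7% lower. In wild type 0 of the 38 passed the test, with a median of 0.83. At an unadjusted p under 0.05, 30 were higher there, where 10.3% of all tested genes were (limma). The smallest p-values in mutants belonged to Melk, a kinase of dividing cells, from 0.345 to 3.65 TPM, Kif4, a chromosome motor, from 0.269 to 2.98 TPM, and Ube2c, which works with the anaphase-promoting complex, from 1.2 to 6.72 TPM. Of 29 further S-phase genes, 7 rose and 1 fell in mutants, with a median of 0.21. Uhrf1, which maintains DNA methylation at replication forks, rose in mutants from 1.41 to 8.95 TPM (adjusted p = 0.000467) and in wild type from 1.30 to 7.74 TPM (adjusted p = 0.0414). The wild-type call of Uhrf1 was lost in 16 of 27 alternatives, with adjusted p-values up to 0.188. Hells, a chromatin remodeller, rose in mutants by 1.07, and Orc1, a subunit of the origin recognition complex, fell by 0.55. A list of cyclins, kinases and other regulators, drawn up around the G1 phase, which precedes S phase, held 10 tested genes. Of these, Cdk6 rose in mutants from 13.8 to 31.4 TPM and Ccnd3 (cyclin D3) fell from 50.2 to 28.1 TPM. Cdk7 went from 31.1 to 23.9 TPM at an adjusted p of 0.0506.

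Macrophage and neutrophil markers rose in injured mutants, and in wild type 0 of either list were called (limma). At an unadjusted p under 0.05, 8 macrophage and 0 neutrophil markers were higher in wild type, where 10.3% of all tested genes were. In mutants 8 of 10 macrophage markers rose, and 4 of 7 tested neutrophil markers did, where 13.1% of all tested genes did. The smallest p-values were those of Cd14, Mrc1 and C1qb and of Csf3r, S100a8 and S100a9. The summed TPM of the macrophage markers was 152 to 177 in intact and 213 to 1657 in injured wild-type discs, and 149 to 228 in intact and 503 to 2824 in injured mutant discs. In injured wild-type mice 1 to 4 it was 213, 250, 1657 and 973 TPM, and the neutrophil markers summed to 3.99, 4.05, 200 and 150 TPM, against 6.08 to 7.03 TPM in intact wild-type discs. Mouse 1, with the lowest sum, had 27 of the 28 mitotic genes above every intact wild-type library, and mouse 2 had 26, where 29.8% and 30.1% of all tested genes were. Mouse 3, highest of the injured wild-type mice for mitotic genes, was also highest in both sums. Among injured mutants 1 to 5 the macrophage sum was 954, 2824, 675, 1274 and 503 TPM. The neutrophil sum was 91.9, 1073, 32.6, 93.9 and 13.6 TPM. Mutant mouse 1, highest for mitotic genes, was not the highest in either. Mutant mice 3 and 5, with the lowest mitotic means (2.29 and 2.36), had the lowest of both sums. Whether cells with these markers account for the mitotic levels was not tested.

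**Figure D5:**
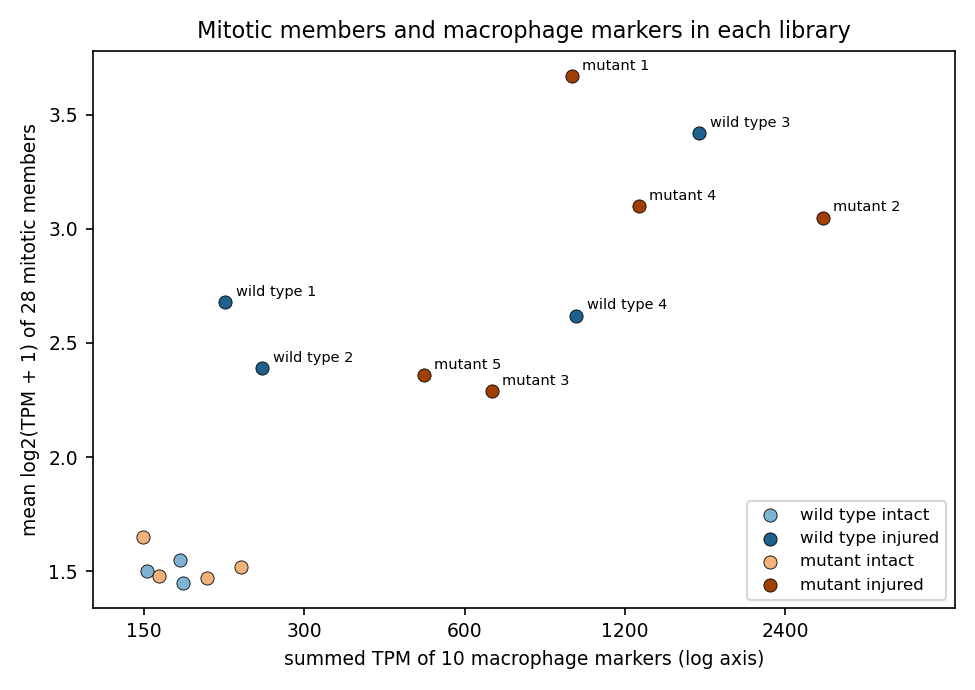
Mean log2(TPM + 1) of the 28 mitotic genes against the summed TPM of 10 macrophage markers (log axis), 1 point per library, injured libraries named. Injured wild-type mice 1 and 2 have macrophage sums of 213 and 250 TPM, near the intact range, and mitotic means of 2.68 and 2.39, above all intact libraries.

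Markers of other tissues that hold dividing cells were read as well. Of the 8 markers of marrow granulocyte precursors, 3 reached the level for testing (Elane, Ngp and Camp). Mpo was at 0 in 14 of 16 libraries, Ctsg in 15 and Fcnb in 13. The list summed to 3 to 14 TPM over all libraries. Of the 10 erythroid precursor markers, 6 were tested, among them Klf1, Hba-a1 and Ermap, and Rhag was at 0 in all 16 libraries. The list summed to 42.4 to 636 TPM, highest in injured wild-type mouse 3 and next in injured mutant mouse 4 (520 TPM). For this list 0 of 6 tested were called in either genotype (limma, 2 at an unadjusted p under 0.05 in mutants and 0 in wild type). The B and T cell list summed to 1.35 to 14 TPM. Of its 12 markers Trac and Cd79a were tested, and Igll1 was at 0 in 15 libraries. Of the 6 epidermis markers, Krt1, Krt10 and Lor were tested. Krt5, of the dividing layer of skin, was at 0 in 14 libraries, and the epidermis list summed to 7.97 to 26.4 TPM. Endothelial markers summed to 10.5, 16.9, 201 and 70.2 TPM in injured wild-type mice 1 to 4, so that mouse 3, highest for mitotic genes, was also highest for these. In injured mutants 1 to 5 they summed to 17.3, 75.3, 13.5, 23.4 and 34.8 TPM, and mouse 1, highest for mitotic genes, was the second lowest. Markers of the disc itself were present throughout. The chondrocyte list summed to 6214 to 34021 TPM and the nucleus pulposus list, of the disc centre, to 582 to 15816 TPM, and in injured mutants 4 of 6 tested nucleus pulposus markers fell. In mutants 13.1% of all tested genes were called higher and 17.7% lower. There, 2 of 4 tested osteoclast markers rose and 1 of 3 tested epidermis markers fell. The calls were 0 of 6 tested endothelial and 0 of 7 tested muscle markers (limma, 3 and 0 at an unadjusted p under 0.05). Of 8 chondrocyte markers 1 rose and 3 fell, and of 6 outer annulus markers 1 rose and 4 fell. The rises in these lists, 12.5% and 16.7%, were near the share of all tested genes. Of 4 tested growth plate and bone markers, 1 fell. The part of these cell types in the changes of the 44 genes was not tested.

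Sequencing depth, as reads worked back from TPM, was 10205050 to 24826715 per library, with a median of 13299261. Of the 44 genes, those with low TPM in intact discs rested on few implied reads, 0 to 12 for Ndc80 and 2 to 13 for Bub1, against 67 to 139 for Mki67 and 153 to 281 for Pcna.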

How the data were processed

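Ribosomal RNA-depleted libraries of 16 mice, each from 4 pooled tail discs, were analysed from a table of TPM values that the authors deposited, in which each library sums to 1000000. Per the submitters' processing notes, bcl2fastq 2.20 and build GRCm38 were used; aligner, counter, annotation and use of strand are not given in the sources used here. Genotype was read from the sample titles. From the deposited TPM, log2(TPM + 1) was computed for the 24188 of 49315 genes that reached 1 TPM in 3 or more libraries. All libraries entered 1 limma fit (version 3.58.1, R 4.3.3, trended eBayes) with 5 contrasts and Benjamini-Hochberg adjustment over all tested genes, at 0.05; every p-value for a gene is from limma, and SE is that of the fit. The script was tested on simulated data, with changes placed in 200 genes of injured mutants. Of changes of 1 and of 2 on the log2 scale, 57% and 83% were called, with 10 false calls. No change was simulated in wild type. In 94.15% to 95.01% of values worth under 20 reads, the value was within 0.05 of a whole read once scaled by gene length, which gave the implied reads per library; voom on these reads was added after seeing the data. These depths limit precision for genes of few reads. The alternatives changed pseudocount, filter, scaling, eBayes trend, array weights, libraries in the fit, library name start, replicate block and single libraries.

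The 44 genes, the other gene lists and the markers were chosen with earlier results of these data known. Values in every library are given for Mki67, Top2a, the highest and lowest gene of each role class and the 5 largest rises in mutants, and promoters for the 3 genes of each phase with the largest change in mutants. Of the cell cycle lists, the 3 genes with the smallest p in mutants are named. The same holds for the macrophage, neutrophil, granulocyte precursor, erythroid and epidermis lists, and the tested B and T cell markers are named. Genes of the other marker lists are not named. E2f1, Mcm5, Mcm6, Mcm7, Nusap1, Aurka and the inhibitors were described after their values were seen. GENCODE M21 supplied loci and exon overlaps (99.5% of gene identifiers matched) and RefSeq GRCm38.p6 the promoters. Mice were the replicates, and no libraries held identical values. Python 3.11.15 and pandas 2.3.3 were used.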

Additional observations from a re-analysis of the deposited data

Results flagged for a closer look

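Of the groups of 4 or 5 mice examined gene by gene, 4 held 1 library far from the others, judged by Dixon's criterion at the level of 95%, which chance exceeds in about 1 of 20 groups, and 78 groups were examined. Injured wild-type mouse 3 stood at 4.41 TPM for Ccne1, a cyclin of S-phase entry, with the other injured wild-type mice at 1.78 to 2.04 TPM. The same mouse stood at 2.21 TPM for Kif2c, a microtubule-dismantling motor, with the others at 0.954 to 1.1 TPM. Injured wild-type mouse 2 stood at 30.6 TPM for Mcm4, a helicase subunit, with the others at 25.4 to 25.7 TPM. Injured mutant mouse 1 stood at 17.2 TPM for Prc1, a central spindle protein, with the others at 9.66 to 11.4 TPM.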

How the results depend on the processing

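Over the alternatives, the count of the 44 genes called for injury in wild type was 0 in the fit as reported, 4 with a pseudocount of 0.1 TPM, 1 of 26 with a filter at a mean of 5 TPM, 2 with quantile normalization, 4 with array weights and 0 to 11 with 1 library left out. Among all genes tested, the calls in these fits were 28, 64, 30, 35 and 77, and 2 to 452 with 1 library left out. For injury in mutants the count of the 44 was 32 as reported and 26 to 32 with 1 library left out. With the filter at a mean of 5 TPM, where fewer genes were tested, it was 17 of 26. It was 0 with only mutant libraries named M and 27 with only those named A8 (the cause was not tested). Among all genes tested, 7438 were called as reported and 5332 to 7985 with 1 library left out. The filter gave 6252, only M libraries 725 and only A8 libraries 3583. Between genotypes in injured discs the count of the 44 was 0 to 1 with 1 library left out, where 7 to 2253 of all tested genes were called. In the other comparisons the count of the 44 was 0 throughout. The change of the S-phase minus mitotic mean was -1.22 in wild type and -1.33 in mutants with a pseudocount of 0.1 TPM, and -0.97 to -0.72 and -0.99 to -0.73 with 1 library left out. Signs turned only for differences that were not called, and the cause was not tested. Mcm4 in wild type was -0.016 with quantile normalization, -0.008 with the replicate block and -0.052 to 0.072 with 1 library left out. Mcm7 in mutants was 0.063 with quantile normalization, 0.075 with median-of-ratios scaling, 0.037 with the replicate block, 0.159 with only A8 libraries, 0.002 with library name start as covariate and -0.079 to 0.048 with 1 library left out. Ccne1 in mutants was -0.272 with only M libraries, against 0.402 as reported. With only A8 libraries, Ccne2 was 0.253 in mutants (-0.160 as reported) and 0.014 between genotypes in injured discs (-0.357 as reported). Nusap1 in mutants was -0.098 to 0.192 with 1 library left out. Mouse numbers did not pair the libraries, which come from different mice: the correlation of deviations over 21 same-numbered pairs was -0.217 to 0.151, and 3 of 16 libraries correlated best with their own number. With the replicate block, 28 of the 44 genes were called in mutants and 0 in wild type, where 6191 and 5 of all tested genes were. Of 2940 values for single genes under alternatives, 2727 kept direction and side of the threshold, 147 lost a call, 48 gained one and 18 turned sign. The values belonged to 105 results, of which 47 were called in the fit as reported, 46 of them for injury in mutants. With only M libraries, 45 calls were lost, so that nearly all calls of the reported fit were absent there. Among all genes, higher ones made up 20.7% of those called between genotypes in injured discs, 34.4% with quantile normalization and 47.5% with median-of-ratios scaling.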

Other observations

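Genes that restrain the cell cycle moved in both directions in injured mutant discs. Of 22 tested inhibitors and repressors, 8 rose and 2 fell in mutants, where 13.1% of all tested genes were called higher and 17.7% lower, and 0 were called in wild type (limma, 6 at an unadjusted p under 0.05). Cdkn1a, which encodes the kinase inhibitor p21, rose in mutants (adjusted p = 0.00193), with means of 109 ± 15.5 TPM (SD, n = 4) in intact and 467 ± 160 TPM (SD, n = 5) in injured discs. In wild type it had means of 118 ± 12.7 TPM (SD, n = 3) and 235 ± 157 TPM (SD, n = 4), adjusted p = 0.39. Btg1, an antiproliferative gene, rose in mutants from 93.4 to 396 TPM (adjusted p = 0.000189). It was the 1 gene of the list that differed between genotypes in injured discs, where wild-type mice had a mean of 186 TPM (adjusted p = 0.0339). Cdkn2d, which inhibits the G1 kinases, went from 7.01 to 14.4 TPM, and E2f8, a repressor of E2F targets, from 0.905 to 3.19 TPM, both called. The genes that fell were Cdkn1c, which encodes the inhibitor p57, from 25.4 to 10.4 TPM, and Rbl2, a pocket protein of resting cells, from 58.5 to 28.4 TPM.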
